A study of Homo sapiens with 4 samples.

Results

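miR-146a, miR-146b and miR-155 are small regulatory RNAs that immune and epithelial cells make more of when inflammatory signals switch on the transcription factor NF-kB. The rows for them were taken by name, with every strand kept, from a small-RNA sequencing table of HCT116 cells, a human colorectal carcinoma line. The rule found 4 of the 1345 rows, namely miR-146a-5p, miR-146b-5p, miR-146b-3p and miR-155-5p. The cells carried a switchable shRNA (short hairpin RNA) that lowers SAE2, the catalytic part of the E1 enzyme that activates SUMO, a small protein that is attached to other proteins. There were 2 libraries labelled plus (replicate 1, labelled sh-plus, and replicate 2, sh2-plus) and 2 labelled minus (replicate 1, sh1-minus, and replicate 2, sh2-minus), read here as with and without doxycycline, which induces the shRNA.

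The 2 shRNAs were carried by separate cell lines, and plus replicate 1 was placed in the sh1 line by elimination, since its label gives no number. The treatment text names 3 days of doxycycline for every library, minus included, so nothing but the words plus and minus gives the condition. Both conditions share the integrated shRNA construct. Doxycycline-treated cells without an SAE2 shRNA were not analysed here, and SAE2 mRNA is not measured in these libraries, so the knockdown itself was not checked. The libraries of a condition come from different lines, so the spread within a condition includes any difference between these 2 lines. The limma p-values given below take most of their estimate of spread from other miRNAs of similar level.

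As background, a miRNA is cut from a hairpin precursor, and 1 of its strands is usually kept in the silencing complex while the partner strand is mostly lost. Bases 2 to 8, the seed, pair with target mRNAs. miR-146a and miR-146b repress IRAK1 and TRAF6, adaptors that carry Toll-like receptor and interleukin-1 signals towards NF-kB, and so form a negative feedback on the factor that induces miR-146a. miR-155 is cut from the transcript once called BIC and is abundant in activated lymphocytes and macrophages, where SHIP1 and SOCS1 are among its targets.

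The mature sequences of the 4 members, from RefSeq on GRCh38.p14, are shown because the seed decides which of them can act on the same sites. Each is written 5′ to 3′ with the seed in capitals, and all 4 were matched by name.
miR-146a-5p: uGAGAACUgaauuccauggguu
miR-146b-5p: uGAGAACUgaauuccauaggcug
miR-146b-3p: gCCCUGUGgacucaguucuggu
miR-155-5p: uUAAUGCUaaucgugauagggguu
miR-146a-5p and miR-146b-5p share the seed GAGAACU and form 1 seed group. miR-146b-3p and miR-155-5p have seeds of their own, which no other RefSeq mature name has. Among those names, miR-7153-5p also holds the miR-146 seed and was not analysed here.

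Because their first 17 bases are the same, miR-146a-5p and miR-146b-5p can be told apart only near the 3′ end. Counted from 1 at the 5′ end, the substitutions of miR-146b-5p relative to miR-146a-5p are G18A and U21C, and miR-146b-5p has 23 bases against 22. The same sequences are repeated here with those positions in capitals.
miR-146a-5p: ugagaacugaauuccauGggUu
miR-146b-5p: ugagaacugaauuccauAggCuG
A read that was trimmed or sequenced short of base 18 could be counted for either, and how the submitters assigned such reads is not given in the sources used here. Neither row had the same values as another row of the table.

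The members come from 3 loci on GRCh38, not from a shared cluster. The MIR146A hairpin lies on the plus strand of chromosome 5 from 160485352 to 160485450, within an exon of the long non-coding host gene MIR3142HG in GENCODE release 29. MIR146B lies on the plus strand of chromosome 10 from 102436512 to 102436584, where no other gene of that release overlaps it. miR-155-5p lies on the plus strand of chromosome 21 from 25573983 to 25574006, within an exon of its host gene MIR155HG. miR-3142, the other miRNA of the MIR3142HG transcript, was not analysed here, nor were miR-146a-3p and miR-155-3p.

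The RefSeq promoter window of MIR3142HG, 250 bases before to 50 bases after the annotated start, is shown because miR-146a-5p had the largest change among the members. It is written for the plus strand of GRCh38.p14 at chr5:160468001-160468300, with the match to the NF-kB consensus in capitals.
MIR3142HG: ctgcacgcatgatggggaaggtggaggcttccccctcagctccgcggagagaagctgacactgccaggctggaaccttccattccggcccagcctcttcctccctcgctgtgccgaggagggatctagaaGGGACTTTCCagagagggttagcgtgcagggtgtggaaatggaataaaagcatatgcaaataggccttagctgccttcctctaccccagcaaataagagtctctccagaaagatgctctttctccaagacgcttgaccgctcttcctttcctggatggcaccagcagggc
The consensus was searched on both strands and was found at 1 position, which starts 120 bases before the annotated start. Of 35116 RefSeq promoter windows of the same length, 5.91% held at least 1 match to the consensus and 0.191% held the exact letters GGGACTTTCC on either strand. Those letters were taken from this match, so the smaller share does not measure how unusual the site is. The MIR155HG window held no match, which says only that these letters are not in that window. A window for MIR146B was not used here. A match is a description of the sequence, and nothing that binds there was measured in these libraries.

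The deposited values are normalised read counts per mature miRNA, with 9700472 to 10519207 per library. The worth of 1 read, found from the spacing of the low values, lay between 0.945 and 1.028 normalised counts, so a floor of 3 reads corresponds to 2.83 to 3.08. A mean level of at least 10 was asked of a miRNA for the test, which 709 met, and 28.5% of these passed between plus and minus (limma, Benjamini-Hochberg adjusted p under 0.05), of which 95 rose and 107 fell. Median-ratio scaling turned the split to 121 rises and 83 falls, and equal totals to 68 rises and 107 falls. Leaving out plus replicate 1 or 2 left 7 or 8 calls, and leaving out minus replicate 1 or 2 left 95 or 113, in that order. The epithelial markers summed to between 317791 and 317898 in the plus and between 268904 and 279543 in the minus libraries, with 5 of the 8 risen. The blood markers summed to between 1027 and 1205 in the plus and between 995 and 1212 in the minus libraries, mostly from miR-451a and miR-486-5p. In that sum miR-142-3p had a mean of 34 in plus and 50 in minus libraries, and miR-142-5p 31 and 33. None of the 4 tested of 7 blood markers passed, and 1 of the 7, miR-144-3p, was under the floor in every library. Of the stromal and endothelial markers 4 of 5 were tested, with 2 risen and 1 fallen, and they summed to between 14095 and 16912 in the plus and between 16425 and 16495 in the minus libraries.

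Of the 4 members, 3 passed the level filter. miR-146a-5p and miR-146b-5p rose with induction, miR-146b-3p did not pass the test, and miR-155-5p was at or under the floor in every library. The 2 rises stand against 13.4% of all tested miRNAs that rose, and no tested member fell, against 15.1% of all. The 3 tested members had a median log2 change of 0.47, against -0.03 over all tested miRNAs. For each of these 3, both plus libraries lay above both minus libraries, which was so for 29.1% of the tested miRNAs. An exact two-sided permutation test of 2 against 2 libraries gave p = 0.333 for each, the smallest that such a design allows.

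miR-146a-5p, the strand known for the feedback on IRAK1 and TRAF6, had normalised read counts of 329.9 and 381 in plus replicates 1 and 2, against 193 and 164 in minus replicates 1 and 2. The groups did not overlap, and the lowest plus library stood well clear of the highest minus library. The means were 355 ± 36.0 in plus and 178 ± 20.1 in minus libraries (SD, n = 2 each), a 1.99-fold difference. On the log2 scale it changed by 0.99 (limma, standard error 0.16, adjusted p = 3.05e-06). Fold changes of the test are on the log2(value + 1) scale. The call was lost without plus replicate 1 (log2 change 1.10, adjusted p = 0.0755) and without plus replicate 2 (0.89, adjusted p = 0.0620).

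Within the sh1 line the log2 change of miR-146a-5p was 0.77, and within the sh2 line it was 1.21. With 1 library per line and condition, the difference of 0.44 between the lines has no test. In estimated reads, 321 in plus against 191 in minus replicate 1 gave a depth-scaled ratio of 1.72 with a 95% exact binomial interval of 1.43 to 2.06. In the sh2 line 373 reads against 174 gave 2.14, with an interval of 1.78 to 2.57. Depth scaling divides by the total of each library, while the log2 changes keep the deposited scaling, so the sizes differ somewhat. The intervals of the lines overlap and cover counting error only, since reads are not independent molecules.

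miR-146b-5p, the paralog with the same seed, was the most abundant member. It had normalised read counts of 9157 and 12775 in plus replicates 1 and 2, against 7606 and 8308 in minus replicates 1 and 2. Plus replicate 2 stood far above the other 3 libraries, while plus replicate 1 lay only a little above minus replicate 2. The means were 10966 ± 2558 in plus and 7957 ± 496 in minus libraries (SD, n = 2 each), a 1.38-fold difference. On the log2 scale it changed by 0.44 (limma, standard error 0.10, adjusted p = 0.000654).

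The size of this rise turned on which plus library was used. Without plus replicate 1 the log2 change of miR-146b-5p was 0.68 (limma, adjusted p = 0.0697), and without plus replicate 2 it was 0.20 (adjusted p = 0.181). The log2 change within the sh1 line was 0.27 and within the sh2 line 0.62. In estimated reads the depth-scaled ratio was 1.21 (95% exact binomial interval 1.17 to 1.24) in the sh1 line and 1.42 (1.38 to 1.46) in the sh2 line. These ratios set the library totals equal, while the log2 changes keep the deposited scaling, so the sizes differ, mainly in the sh2 line. The lines differed by more than counting error, and whether they differed by more than repeat libraries of a line would is not measured here.

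**Figure D1:**
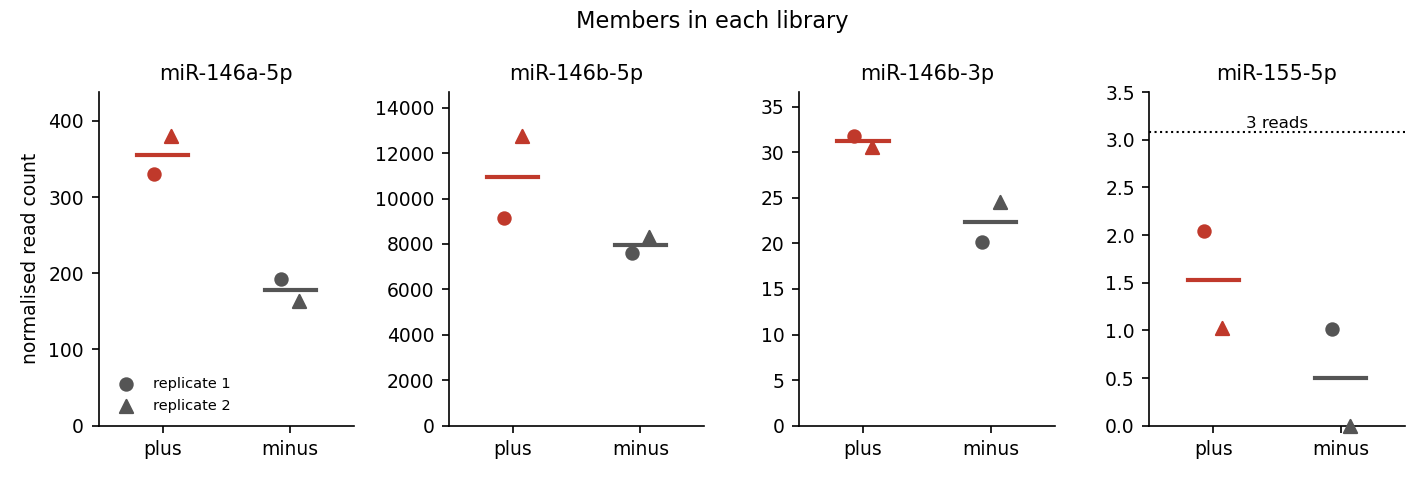
Normalised read count (linear axis from 0) of each member in the 2 plus (red) and 2 minus (grey) libraries, with circles for replicate 1, triangles for replicate 2 and bars for the mean. miR-146a-5p stands at 329.9 and 381 in plus against 193 and 164 in minus libraries, miR-146b-5p has 1 plus library at 12775 and the other at 9157, and all miR-155-5p values lie below the dotted line at 3 reads.

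The plus libraries lay farther apart for miR-146b-5p than for other miRNAs of similar level. Of the 43 tested miRNAs with a mean within 2-fold of that of miR-146b-5p, itself included, miR-146b-5p had the largest difference between the 2 plus libraries, 0.48 on the log2 scale, against a median of 0.10 in absolute size. Between the minus libraries it differed by 0.13, against a median of 0.08. The limma fit takes most of its estimate of spread from other miRNAs of similar level. The standard error of 0.10 grew to 0.20, and the call was lost (adjusted p = 0.230), when the spread was not taken as a trend over the level. The lost call was not particular to miR-146b-5p, since that fit left 5 calls in all. There miR-146a-5p lost its call too (limma, adjusted p = 0.0702), though its standard error was 0.153 against 0.157 with the trend. For miR-146a-5p the plus libraries differed by 0.21, near the median of 0.16 of the 124 miRNAs within 2-fold of its mean. Its minus libraries differed by 0.23, above the median of 0.12 of the same miRNAs.

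**Figure D2:**
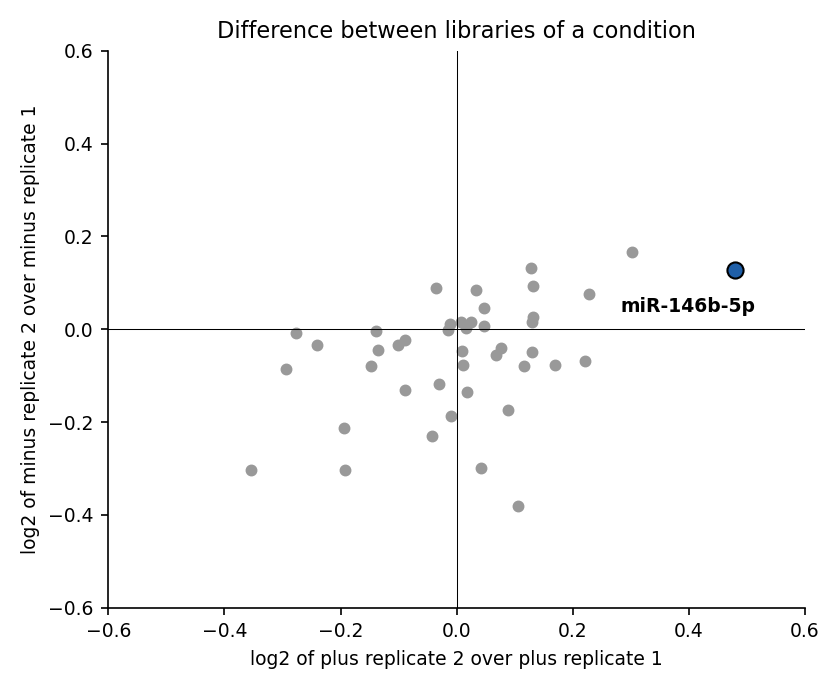
Log2 of replicate 2 over replicate 1 between the plus libraries (x axis) and between the minus libraries (y axis) for the 43 tested miRNAs with a mean within 2-fold of that of miR-146b-5p, 1 point each. miR-146b-5p (blue) lies farthest from 0 on the x axis, at 0.48, and at 0.13 on the y axis.

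miR-146b-3p, the partner strand cut from the MIR146B hairpin, had normalised read counts of 31.8 and 30.6 in plus replicates 1 and 2, against 20.2 and 24.5 in minus replicates 1 and 2. Both plus libraries were higher than both minus libraries, by a margin of a few reads. The means were 31.2 ± 0.856 in plus and 22.4 ± 3.08 in minus libraries (SD, n = 2 each). The log2 change of 0.47, with a standard error of 0.33, did not pass the test (limma, adjusted p = 0.308). The strand rests on 61 estimated reads in plus and 46 in minus libraries, a depth-scaled ratio of 1.34 with a 95% exact binomial interval of 0.897 to 2.01. A change of the size seen for miR-146b-5p was not detectable at this depth.

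The ratio of the MIR146B strands does not change when a whole library is scaled by 1 factor. miR-146b-5p outnumbered miR-146b-3p 288-fold and 417-fold in plus replicates 1 and 2, against 377-fold and 339-fold in minus replicates 1 and 2. The groups overlapped, with both minus libraries between the plus libraries. The difference of the mean log2 ratios was -0.03, within the standard deviations of 0.38 in plus and 0.10 in minus libraries (n = 2 each, exact permutation p = 1). The logs were taken after 1 was added to each value, so they are not wholly free of scaling. Leaving out plus replicate 1 gave a difference of 0.24 and leaving out plus replicate 2 gave -0.29. Without minus replicate 1 it was 0.04 and without minus replicate 2 it was -0.10. With all 4 libraries quantile normalization gave -0.17 and a pseudocount of 5 gave 0.03, so the sign of the difference was not settled.

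miR-155-5p, the lymphoid and macrophage miRNA, had normalised read counts of 2.04 and 1.02 in plus replicates 1 and 2, against 1.01 and 0 in minus replicates 1 and 2. These correspond to 2 and 1 estimated reads in plus and 1 and 0 in minus libraries. No library exceeded the floor of 3 reads, so no fold is given, and a difference was not detectable at this depth. The 0 in minus replicate 2 allows up to 2.83 normalised counts.

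In each library the order of levels was the same, with miR-146b-5p highest, then miR-146a-5p, miR-146b-3p and miR-155-5p. No neighbours in that order overlapped between any libraries. A read spans the whole of a miRNA, so length does not enter these levels, while the ease with which adaptors join differs between sequences and was not measured. By mean level over the 4 libraries miR-146b-5p ranked 77th, miR-146a-5p 288th and miR-146b-3p 552nd of 709 tested miRNAs.

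The balance of the paralogs moved towards miR-146a-5p. For every 100 normalised counts of miR-146b-5p there were 3.60 and 2.98 of miR-146a-5p in plus replicates 1 and 2, against 2.53 and 1.98 in minus replicates 1 and 2. The groups did not overlap, and the share was lower in replicate 2 than in replicate 1 in both conditions. The mean log2 ratio of miR-146a-5p to miR-146b-5p was -4.93 ± 0.19 in plus and -5.47 ± 0.25 in minus libraries (SD, n = 2 each), a difference of 0.55 (exact permutation p = 0.333). This ratio is taken inside each library and, apart from the 1 added before the logs, does not change when a whole library is scaled by 1 factor. The difference ranged from 0.37 to 0.73 with 1 library left out. How reads too short to tell the paralogs apart were assigned is not known, and such reads could enter this ratio.

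Summed over the shared seed, the miR-146 5p strands had 9487 and 13156 normalised counts in plus replicates 1 and 2, against 7798 and 8472 in minus replicates 1 and 2. miR-146a-5p made up 3.48% and 2.90% of that sum in the plus and 2.47% and 1.94% in the minus libraries, so nearly all of it was miR-146b-5p. The sum was 0.0965% and 0.125% of all normalised counts in the plus libraries, against 0.0792% and 0.0873% in the minus libraries. The mean sum was 1.39-fold higher in plus than in minus libraries, close to the 1.38-fold difference of miR-146b-5p alone.

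Set beside miRNAs of similar level, the members' changes took different places. Of the 124 tested miRNAs within 2-fold of the mean of miR-146a-5p, 13 rose and 30 fell, their median log2 change was -0.14, and 4, miR-146a-5p included, had a log2 change at least as high as 0.99. Of the 43 within 2-fold of miR-146b-5p, 13 rose and 9 fell, and 8, itself included, reached 0.44 or more. Of the 203 within 2-fold of miR-146b-3p, 10 rose and 16 fell, and 31, itself included, reached 0.47 or more. Among all 709 tested miRNAs the log2 change of miR-146a-5p ranked 22nd from the top, that of miR-146b-3p 89th and that of miR-146b-5p 100th.

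**Figure D3:**
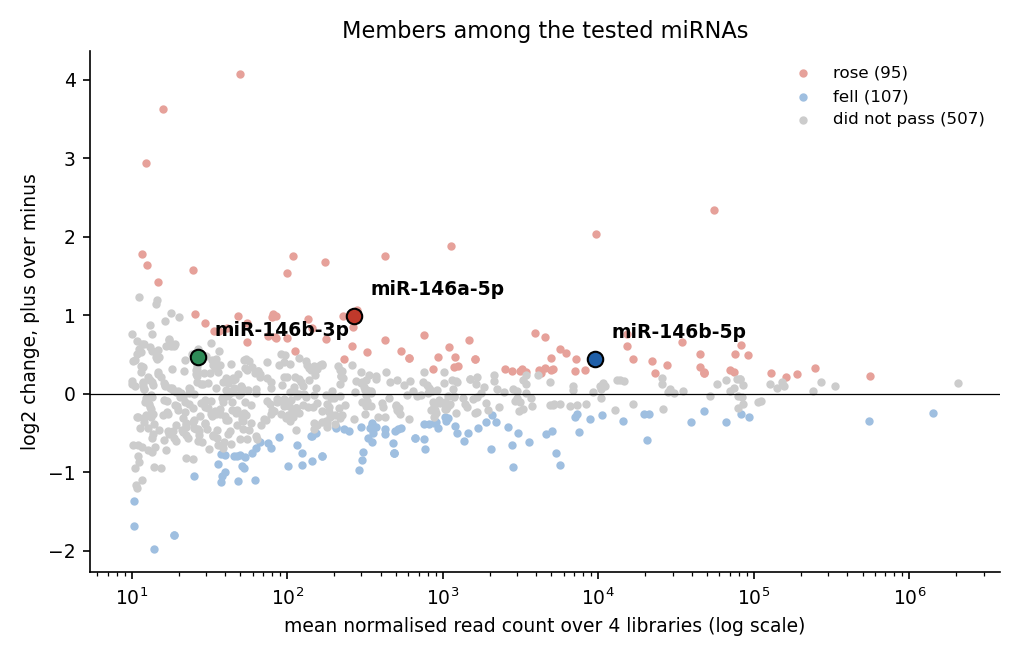
Log2 change, plus over minus, against the mean normalised read count (log axis) of the 709 tested miRNAs, with those that rose in light red, fell in light blue and did not pass in grey. miR-146a-5p lies at a log2 change of 0.99, above nearly all miRNAs of its level, and miR-146b-5p and miR-146b-3p lie at 0.44 and 0.47.

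The miRNAs next to the members in mean level did not share their changes, with 1 exception. Next above and below miR-146a-5p were miR-185-3p, at a log2 change of 0.03, and miR-3928, at -0.32, and next to miR-146b-3p were miR-376a-3p at -0.45 and miR-3115 at -0.61, none of which passed. miR-140-3p, next below miR-146b-5p, had a log2 change of 0.02 and did not pass. Next above it was miR-181b-5p, which rose by a log2 change of 2.04 (limma, adjusted p = 2.29e-23).

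Likeness of pattern was measured as the root mean square difference of log2 values over the 4 libraries, after each miRNA's own mean was taken away. The 3 miRNAs nearest to miR-146a-5p were miR-4461 at 0.048, miR-4697-3p at 0.069 and miR-22-5p at 0.091, which rose with log2 changes of 1.07, 1.02 and 0.99. Nearest to miR-146b-5p were miR-3194-3p at 0.040, miR-95 at 0.065 and miR-642a-3p at 0.072. Of these, miR-95 rose (log2 change 0.44, limma adjusted p = 0.000306), with 7409 and 9135 normalised counts in plus replicates 1 and 2, against 5704 and 6405 in minus replicates 1 and 2, so plus replicate 2 was its highest library too. Nearest to miR-146b-3p were miR-1343 at 0.020, miR-589-3p at 0.060 and miR-574-3p at 0.069, of which miR-574-3p rose (log2 change 0.47, limma adjusted p = 0.00134). These miRNAs were picked for likeness over the same 4 libraries, so their similar changes follow from that choice. With 4 libraries such likeness is a description only.

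The calls of the members were followed over 14 other ways of processing. miR-146a-5p kept a log2 change between 0.93 and 1.07 over the 10 with all 4 libraries and was called in 8 of them. miR-146b-5p ranged from 0.34 to 0.51 and was called in 7 of the 10. The log2 change of each tested member was above 0 in every alternative in which it was tested.

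**Figure D4:**
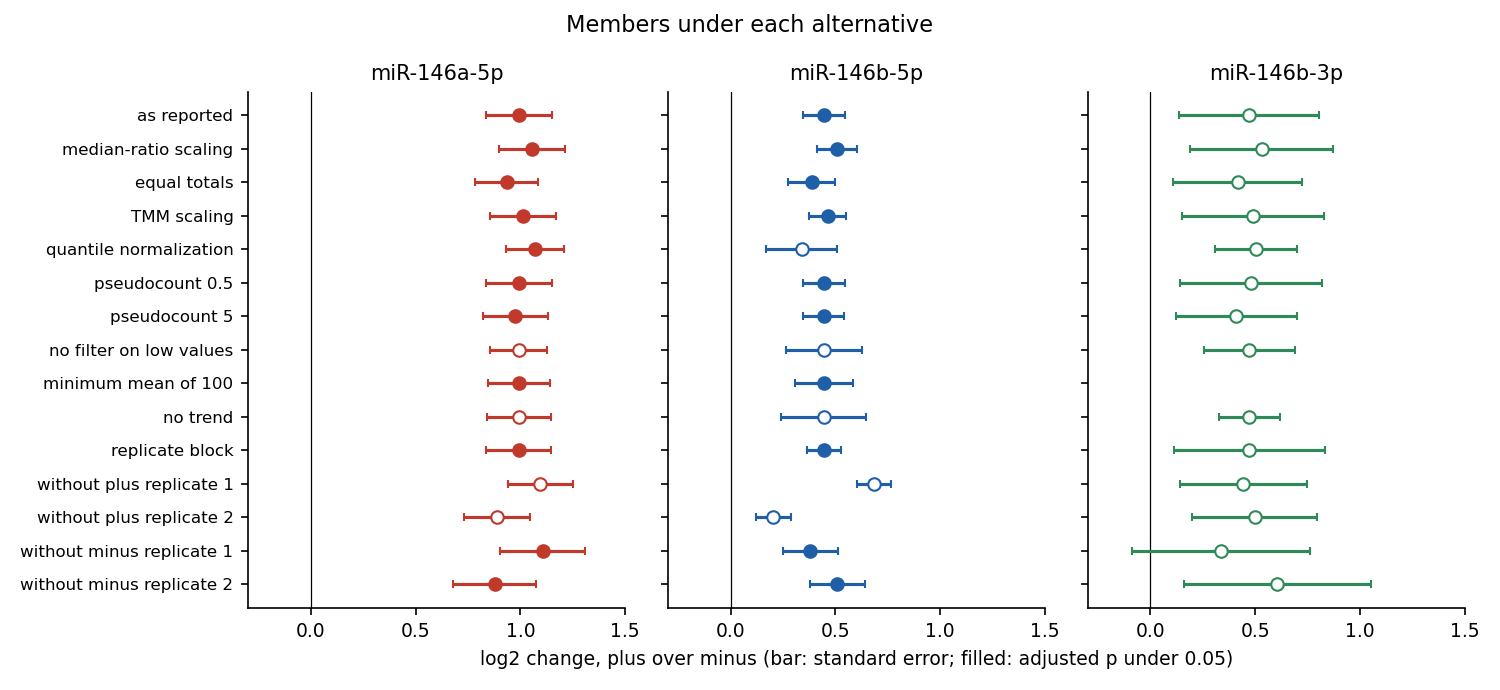
Log2 change, plus over minus, of the 3 tested members under each way of processing, with bars for the standard error of the limma fit and filled circles for an adjusted p under 0.05. miR-146a-5p stays between 0.88 and 1.11, miR-146b-5p moves to 0.20 without plus replicate 2 and to 0.68 without plus replicate 1, and miR-146b-3p has open circles throughout.

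Other miRNAs reported as raised by inflammatory signals or NF-kB showed both directions. The list held 22 rows, of which 18 passed the level filter, and 5 of them rose, 3 fell and 10 did not pass. That is 44.4% past the test, against 28.5% of all tested miRNAs, and the median log2 change of 0.03 lay near the -0.03 of all tested miRNAs. The members were chosen apart from this list and are not counted in it. Without plus replicate 1 or plus replicate 2 the limma test called 0 strands of the list, with 7 at an unadjusted p under 0.05 in each case, and it called 6 without minus replicate 1 and 4 without minus replicate 2.

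The risers of the list were strands of miR-132, miR-212 and miR-9. miR-132-3p and both strands of miR-212, neighbours in 1 cluster that CREB is known to induce, rose with log2 changes of 0.68, 0.84 and 0.80 (limma, adjusted p = 0.000128, 0.0240 and 0.0440). The call of miR-212-5p held in 4 of the 9 alternatives with all libraries that tested it, and in none of the 4 fits with a library left out. It was lost with the line as a block (7 in place of 8 calls in the list), with equal totals, under quantile normalization, without a filter and without a trend. miR-212-3p lost its call under quantile normalization, without a filter, without a trend and with any library but minus replicate 1 left out. Both strands of miR-9, a miRNA best known from neurons and also induced by Toll-like receptor signals in monocytes, rose with log2 changes of 0.44 for miR-9-5p and 0.37 for miR-9-3p (limma, adjusted p = 5.65e-05 and 0.000687). miR-9-5p had 18574 and 20142 normalised counts in plus replicates 1 and 2, against 14627 and 13849 in minus replicates 1 and 2, without overlap. The call of miR-9-3p was lost without minus replicate 2 (limma, adjusted p = 0.0873). miR-132-5p had a log2 change of 0.36 and did not pass, though it did under median-ratio scaling (0.42, limma adjusted p = 0.0409).

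The falls were in miR-125b-1-3p, miR-224-5p and miR-301a-5p. miR-125b-1-3p, a partner strand of 1 of the copies of miR-125b, had 1489 and 1595 normalised counts in plus against 2465 and 2572 in minus replicates 1 and 2, a log2 change of -0.71 (limma, adjusted p = 3.90e-07). Its abundant partner miR-125b-5p was at -0.04 and did not pass, though it was called as a fall under quantile normalization (-0.15, limma adjusted p = 0.0189). miR-224-5p had a log2 change of -0.41 (limma, adjusted p = 0.00452) and miR-301a-5p one of -0.47 (adjusted p = 0.0209), while miR-224-3p at -0.24 and miR-301a-3p at -0.18 did not pass. Quantile normalization ended the calls of miR-224-5p and miR-301a-5p. With a library left out, miR-224-5p was called only without minus replicate 1 and miR-301a-5p only without minus replicate 2.

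miR-21, miR-31, miR-210 and miR-147b did not pass. miR-21-5p, an oncogenic miRNA raised in many tumours, was at a log2 change of 0.13 and its partner miR-21-3p at -0.13. miR-31-5p, high in colorectal cancer, was at 0.10 and miR-31-3p at -0.17. The hypoxia miRNA miR-210 was at 0.09 and miR-147b, known from macrophages, at -0.18. Below the level filter were miR-223-3p, abundant in myeloid cells, with 2.08 and 5.10 normalised counts in plus against 5.04 and 4.73 in minus replicates 1 and 2, and also both strands of miR-187 and miR-125b-2-3p.

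**Figure D5:**
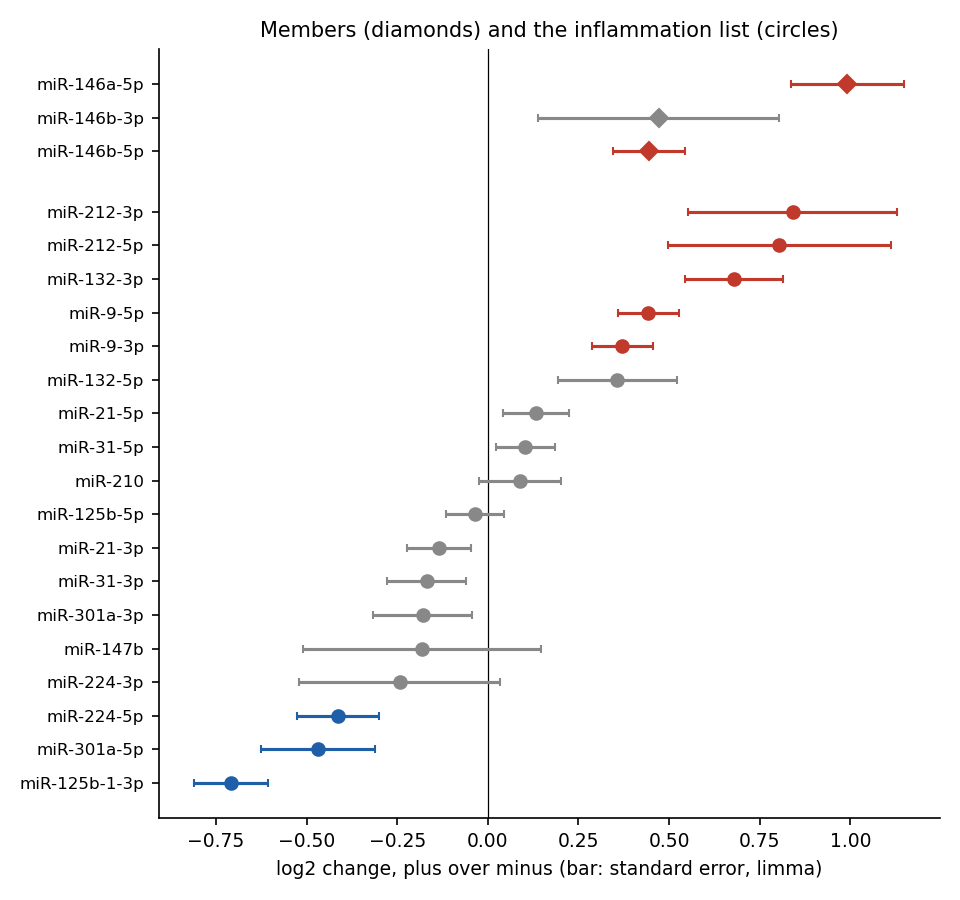
Log2 change, plus over minus, of the 3 tested members (diamonds) and the 18 tested strands of the inflammation list (circles), with bars for the standard error of the limma fit, in red where the strand rose, blue where it fell and grey where it did not pass. miR-146a-5p at 0.99 lies to the right of every strand of the list, whose values run from -0.71 for miR-125b-1-3p to 0.84 for miR-212-3p.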

How the data were processed

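Small RNA of 4 HCT116 libraries was sequenced. The deposited signal for each mature miRNA appears, from its values, to be a read count that the authors scaled between libraries. The library totals still differ after that scaling. Per the submitters' processing notes, TopHat2 2.0.8b, edgeR, hg19 and GRCh37 were used, with no role given, and the titles name cutadapt. No source used here gives the read counter or the miRNA annotation. Column names write sh4 where titles write sh2, so columns were matched by library number and index.

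Plus was tested against minus by limma 3.58.1 (R 4.3.3), fitted to log2(value + 1) with its trend of variance over level, for miRNAs with a mean of at least 10, with Benjamini-Hochberg adjustment, two-sided, at a threshold of 0.05 (2 residual and 43.0 prior degrees of freedom). The fit was tested on simulated data. No count model was run, since the values are normalised. The share of values under 60 that came within 0.1 of whole reads was 85.1% in minus replicate 2 and 98.5% to 100% in the others. Estimated reads were rounded to whole numbers for the binomial intervals. Estimated depth was 9566036 to 10297804 reads.

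Same-numbered libraries share a line, by label for sh2 and by elimination for sh1, and their deviations correlated at 0.15 across 386 miRNAs. Named miRNAs are the members, the tested strands of the inflammation list, the 3 nearest in pattern to each tested member and its neighbours in level, besides some blood markers. The members and lists were chosen with earlier results of these data known.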

Additional observations from a re-analysis of the deposited data

Results flagged for a closer look

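In 4 strands of the inflammation list, none of which passed the test, the log2 change had opposite signs in the cell lines. The difference between the lines was not tested, since each line has 1 library per condition. The log2 change in the sh2 line minus that in the sh1 line was 0.59 for miR-147b, -0.34 for miR-210, 0.65 for miR-224-3p and 0.40 for miR-31-3p. Each tested member had the same sign in both lines.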

How the results depend on the processing

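Under median-ratio scaling, equal totals, TMM scaling, pseudocounts of 0.5 and 5, a minimum mean of 100 and the line as a replicate block, miR-146a-5p and miR-146b-5p kept their calls. The replicate block gave log2 changes of 0.99 for miR-146a-5p and 0.44 for miR-146b-5p (limma, adjusted p = 9.31e-09 and 8.81e-07) and 216 calls in all, and in the inflammation list it changed the call of miR-212-5p and no other. Without a filter on low values and without a trend, calls were lost for miR-146a-5p (log2 change 0.99, adjusted p = 0.0795 and 0.0702, between 1.17e-09 and 0.0795 in the 10 alternatives that use every library) and for miR-146b-5p (0.44, adjusted p = 0.258 and 0.230, between 8.81e-07 and 0.258). Quantile normalization ended the call of miR-146b-5p (0.34, adjusted p = 0.243) and gave 101 calls in all, against 202, and 5 in the list, against 8, of which miR-125b-5p was called only here. The fits without a filter and without a trend left 5 calls each in all and 0 in the list, where limma gave an unadjusted p under 0.05 for 9 and 8 strands. With 1 library left out, which assumes that the lone library of a condition varies like the other, calls numbered 7 to 113 in all and 0 to 6 in the list, and log2 changes ran from 0.88 to 1.11 for miR-146a-5p and from 0.20 to 0.68 for miR-146b-5p. miR-146b-3p did not pass in any alternative, with log2 changes from 0.34 to 0.61, and it was not tested at a minimum mean of 100. Depth limits miR-146b-3p and leaves miR-155-5p without a test.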
